A study of Mus musculus with 7 samples.

Results

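The mouse epiblast stem cell (EpiSC) line OG2.1 was compared with 5 other EpiSC lines, OG2.2, C1a1, E3, E5 and T9. The members are the genes in which OG2.1 lay above or below all 5 of them. A gene entered when its probe was above background, at a detection p under 0.01 against the negative controls of the same array, on at least 1 of the 6 EpiSC arrays, which gave 8871 genes. OG2.1 was above all 5 other lines in 1409 genes (15.9% of those tested) and below all 5 in 1567 (17.7%), together 2976 members. The order of the lines was fixed by the way the genes were chosen, so it is described here and not tested. The description leads with the genes that stood at least 1 log2 unit outside, 86 above (0.969%) and 13 below (0.147%).

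EpiSCs are pluripotent cells that resemble the epiblast of the embryo just after it has implanted. Total RNA from each line was measured once, as biotin-labelled cRNA on an Illumina bead array, and the labels give a line name and a cell type for each array with no treatment, age or passage. The embryonic stem cell (ESC) line R1, which stands closer to the epiblast of the blastocyst, served as a reference value only. With 1 array per line, OG2.1 as a line cannot be told apart from its culture or its array, p-values measure the spread between the other lines, and precision is limited by the small number of arrays. In bulk RNA, fewer cells of a type and less RNA per cell cannot be told apart either.

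Some of the genes that set OG2.1 apart belong to the red cell lineage. Haemoglobin pairs alpha-type with beta-type globin chains, and the first, primitive red cells of the yolk sac use embryonic chains (Hbb-y and Hbb-bh1 of the beta-type locus, Hba-x of the alpha-type locus) that adult-type chains later replace. Others belong to the ventral midline of the neural tube. There the floor plate, which expresses Foxa2 and secretes the signalling protein Sonic hedgehog (Shh), patterns the progenitors beside it into domains marked by transcription factors such as Nkx2-2, Nkx2-9 and Nkx6-1, and guides axons with secreted cues such as Slit2.

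The promoters of 4 globin genes are shown to set 2 embryonic globins that were above background in OG2.1 alone, Hbb-y and Hba-x, beside 2 adult-type ones that were not, Hba-a1 and Hbb-bt. Each line gives the 250 bases before the gene's start, 5′ to 3′ on the gene's strand, from RefSeq on GRCm38.p6. Capitals mark matches on either strand to GATA (the core bound by GATA factors), CACCC (the box bound by Krüppel-like factors), CCAAT and the TATA-like ATAAA. Hbb-y lies at chr7:103853208-103853457 on the minus strand, Hba-x at chr11:32276350-32276599 and Hba-a1 at chr11:32283422-32283671 on the plus strand, and Hbb-bt, an adult beta globin, at chr7:103813924-103814173 on the minus strand.
Hbb-y: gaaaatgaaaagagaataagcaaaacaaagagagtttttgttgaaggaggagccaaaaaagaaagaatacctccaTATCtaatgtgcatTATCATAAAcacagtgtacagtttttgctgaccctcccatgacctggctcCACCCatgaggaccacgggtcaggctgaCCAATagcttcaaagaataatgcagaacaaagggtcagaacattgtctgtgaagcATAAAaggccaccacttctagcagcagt
Hba-x: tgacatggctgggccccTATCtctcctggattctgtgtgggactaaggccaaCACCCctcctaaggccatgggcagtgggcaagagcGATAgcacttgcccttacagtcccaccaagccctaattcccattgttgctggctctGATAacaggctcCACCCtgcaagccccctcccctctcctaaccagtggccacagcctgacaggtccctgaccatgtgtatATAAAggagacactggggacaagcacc
Hba-a1: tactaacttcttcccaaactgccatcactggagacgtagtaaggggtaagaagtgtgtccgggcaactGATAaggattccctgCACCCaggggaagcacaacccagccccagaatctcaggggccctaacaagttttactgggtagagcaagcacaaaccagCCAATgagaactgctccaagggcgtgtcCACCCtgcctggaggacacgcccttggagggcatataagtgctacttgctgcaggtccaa
Hbb-bt: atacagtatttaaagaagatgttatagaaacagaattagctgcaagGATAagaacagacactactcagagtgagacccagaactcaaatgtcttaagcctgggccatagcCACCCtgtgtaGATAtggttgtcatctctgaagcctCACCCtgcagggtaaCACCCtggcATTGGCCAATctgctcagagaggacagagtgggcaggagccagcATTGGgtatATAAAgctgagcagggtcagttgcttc

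All 4 windows held GATA and CACCC, and these letters were also in 53.6% and 52% of 32851 RefSeq promoter windows of this length. CCAAT was found in Hbb-y, Hba-a1 and Hbb-bt and in 33.8% of all windows, and ATAAA in Hbb-y, Hba-x and Hbb-bt and in 37.3%. All 4 motifs together stood in Hbb-y and Hbb-bt and in 3.84% of all windows. In Hbb-y, 1 ATAAA match adjoined a GATA match on the other strand, and in Hbb-bt 2 CCAAT matches on opposite strands adjoined each other. The same short motifs thus stood before globin genes that were above background in OG2.1 and before Hbb-bt, which was above background in no EpiSC line. Such a match describes letters only and is no evidence of a bound site.

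The embryonic beta globins Hbb-y and Hbb-bh1 had the 2 widest gaps to the next line, 3.85 and 3.35. Hbb-y, the epsilon-type embryonic beta chain, was at 8.42 in OG2.1 on the normalized log2 scale, against 4.47 in OG2.2, 4.45 in E3, 4.58 in E5, 4.40 in T9 and 4.50 in C1a1, with 4.44 in R1. In raw intensity the Hbb-y signal was 441.3 in OG2.1 and 101.5 to 110.6 in the other EpiSC lines. OG2.1 alone was above background, the others had an SD of 0.06 (n = 5), and Hbb-y was at least 7.32-fold higher in OG2.1 than the lowest level detectable on those arrays. Its difference of 3.94 (SE 0.23) from the mean of the other lines passed limma, a linear model fitted across all genes with Benjamini-Hochberg adjustment (adjusted p = 0.00407). Hbb-y entered through OG2.1 alone and so had to lie high there, and the spread between the other lines was that of values below background. A second Hbb-y probe read 8.25 in OG2.1 and 4.40 to 4.57 in the other EpiSC lines.

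Hbb-bh1, the neighbouring embryonic beta chain, was at 8.11 in OG2.1 and at 4.56, 4.75, 4.53, 4.39 and 4.76 in OG2.2, E3, E5, T9 and C1a1, with 4.42 in R1. Again no other line was above background, and Hbb-bh1 was at least 5.88-fold higher in OG2.1 (difference 3.51, SE 0.26, limma adjusted p = 0.0101). The call ended without E3 (adjusted p = 0.0537), without E5 (0.0503), without background correction (0.0554) and in the deposited log2 values (0.119), at differences of 1.75 to 5.22.

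Their alpha-type partner Hba-x, the zeta-type embryonic chain, was at 7.02 in OG2.1 and between 4.37 and 4.74 in the other EpiSC lines, all below background. Its difference of 2.45 (SE 0.26) fell just short in limma (adjusted p = 0.0525) and passed in 4 of 14 alternatives, with adjusted p-values from 0.0319 to 0.216. Hba-a1, an adult-type alpha chain which this array may not separate from its near-identical copy Hba-a2, was at 8.27 in OG2.1, 6.33 in OG2.2, 6.12 in E3, 6.52 in T9 and 5.32 in C1a1, with 4.42 in E5. E5 and C1a1 were below background, and OG2.1 exceeded the next line, T9, by 1.75 (difference from the mean 2.53, SE 0.74, limma adjusted p = 0.654). The adult beta chains Hbb-b2 and Hbb-bt and the theta-type genes Hbq1a and Hbq1b were at 4.56 to 4.76 in OG2.1, below background there.

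**Figure D1:**
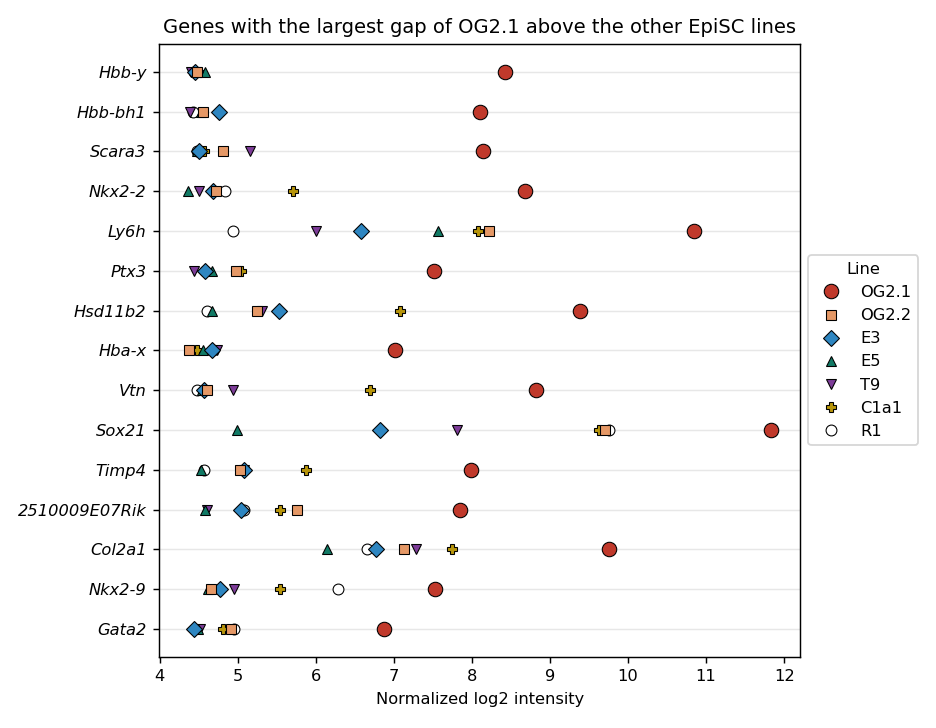
Normalized log2 intensity (x axis) of the 15 genes with the largest gap between OG2.1 and the next highest EpiSC line, ordered by that gap from the top. Each point is 1 array, with R1 as the open circle. Hbb-y, Hbb-bh1 and Hba-x sit between 7.02 and 8.42 in OG2.1 with all other lines at 4.76 or lower, while in Nkx2-2, Vtn and Hsd11b2 the C1a1 point lies between OG2.1 and the remaining EpiSC lines.

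The globins came with few other genes of the blood lineage. Of the 6 primitive erythroid markers on the array, OG2.1 had 3 above background, the globins themselves. Gata1, the master transcription factor gene of red cells, was at 4.67 in OG2.1, the red cell haem synthesis gene Alas2 at 4.87 and the erythroid factor gene Klf1 at 5.09, all below background there, and C1a1 and R1 had Klf1 above it. Of 7 erythroid factor and surface protein genes tested, 2 were above all 5 other lines and 0 by at least 1, with a median difference of 0.09 against -0.03 over all genes tested. Bcl11a, a repressor gene that acts in globin switching, was at 7.86 in OG2.1 and 7.65 in E5, and Lmo2 at 7.47 in OG2.1 and 7.37 in E3. Haem synthesis genes had a median difference of -0.05, with 1 of 8 above all the others and 1 below, near the shares over all genes tested (15.9% and 17.7%).

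Gata2, the transcription factor gene of blood progenitors that is also expressed in other lineages, was the exception. It was at 6.88 in OG2.1 and at 4.91, 4.44, 4.49, 4.51 and 4.81 in OG2.2, E3, E5, T9 and C1a1, none above background, so it was at least 2.51-fold higher in OG2.1 (difference 2.25, SE 0.29, limma adjusted p = 0.0876). Of the 13 blood and endothelial progenitor genes tested, Gata2, Ets1 (8.04 in OG2.1, 7.81 in OG2.2) and Cbfa2t3 (5.84 in OG2.1, 5.66 in C1a1) were above all 5 other lines. Without Gata2, which entered through OG2.1 alone, it was 2 of 12, against 14.8% of all genes that did not enter so. Etv2, an early factor of blood and vessel formation, was at 8.28 in OG2.1 and 8.36 to 8.89 in the other EpiSC lines, lowest in OG2.1. The progenitor genes Kdr, Tal1, Fli1, Runx1 and Cdh5 were not above background on any array.

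Scara3, a scavenger receptor-like gene induced by oxidative stress, was the third and last gene to pass limma. It was at 8.14 in OG2.1 and at 4.81, 4.50, 4.47, 5.16 and 4.57 in OG2.2, E3, E5, T9 and C1a1, with 4.47 in R1. Only OG2.1 was above background, at least 6.01-fold higher (difference 3.44, SE 0.33, limma adjusted p = 0.0359). The call rested on several arrays: it ended without OG2.2 (adjusted p = 0.0911), E3 (0.180), E5 (0.0924) or C1a1 (0.0701), without background correction (0.0639) and in the deposited log2 values (0.171), at differences of 1.73 to 4.99. Of the other scavenger receptor genes tested, Scarb2 was also above all 5 lines, at 6.60 in OG2.1 and 5.45 to 6.33 in the others. Scarf2 was at 7.13 in OG2.1, below 7.87 in OG2.2 and 8.05 in C1a1, and Scarf1 was below background in OG2.1.

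In all, limma called 3 genes higher in OG2.1 (0.0338% of 8871) and 0 lower (0%). All 3 entered through OG2.1 alone and so had to lie high there. The spread of the other lines in them was that of values below background. At an unadjusted limma p under 0.05 there were 336 higher and 192 lower, together 528 of the 8871. A share of about 0.05 falls under that threshold where no gene differs. The numbers of genes outside all other lines place OG2.1 among the 6 lines. By at least 1 log2 unit it stood above in 86 genes, against 51 for OG2.2, 47 for E5 and for C1a1, 40 for E3 and 23 for T9. Below all others it stood in 13, against 99 for E5, 42 for C1a1, 26 for OG2.2, 22 for E3 and 5 for T9. At that size OG2.1 thus had the highest count above and the second lowest count below. Its largest gap, 3.85 in Hbb-y, was exceeded by the largest gaps of E3 (5.01), T9 (4.32) and C1a1 (5.41). At a gap of any size, OG2.1 was above all others in 1409 genes, fewer than E5 (1765), E3 (1708), C1a1 (1590) and OG2.2 (1456). Only T9 (917) had fewer. Below all others OG2.1 had 1567 genes, and the other lines had 879 (T9) to 1886 (E5). Its 2976 members compare with 1796 in T9 and 3651 in E5. At the threshold, the nearest genes had gaps of 1.003 inside and 0.996 outside on the high side, and -1.07 inside and -0.991 outside on the low side.

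**Figure D2:**
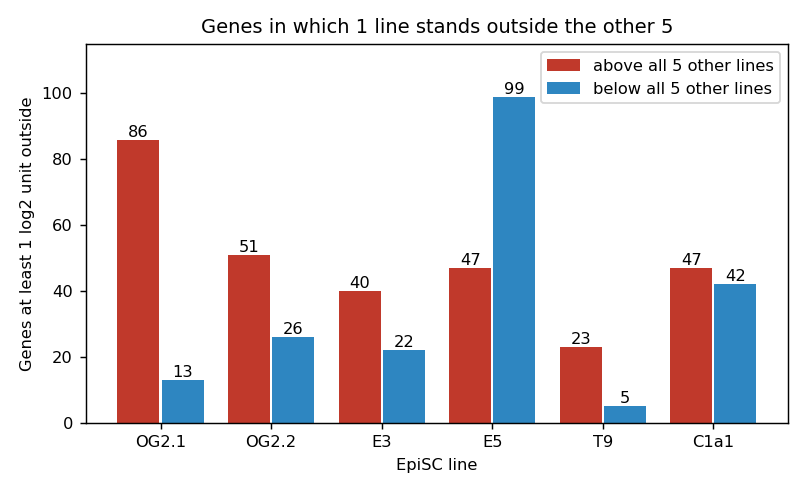
Number of genes (y axis) in which each EpiSC line (x axis) stood at least 1 log2 unit above (red) or below (blue) all 5 other EpiSC lines, of 8871 tested. OG2.1 has the tallest red bar, 86, and a short blue one, 13, whereas E5 shows the reverse with 47 and 99.

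Of the 86 genes at least 1 above, 32 were above background in no other EpiSC line, 38 in 1 to 4 others and 16 in all 5. A gene that entered through OG2.1 alone had to lie high there. Without the 116 such genes (1.31% of those tested), 54 of 8755 genes stood at least 1 above (0.617%). The next highest line was OG2.2 in 32 of the 86 and C1a1 in 28, then E5 in 10, E3 in 9 and T9 in 7, and E5 was the lowest line in 34. R1 was above background in 28 of the 86, higher than OG2.1 in 11 and between OG2.1 and the next EpiSC line in 13. All 17 of the 86 genes with more than 1 kept probe had every kept probe above all 5 other lines.

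Genes of the floor plate and ventral neural tube supplied 10 of the 86 genes and 3 of the 15 widest gaps, Nkx2-2, Vtn and Nkx2-9. Of 17 such genes tested, from a textbook list drawn up after values were seen, 13 were above all 5 other lines and 10 by at least 1, and 0 passed limma. Their median difference was 2.62, and the same without Corin, the 1 member that entered through OG2.1 alone. With Corin left out, 12 of 16 were above all 5 other lines and 9 by at least 1. Over all genes tested these shares were 15.9% and 0.969%. Over all genes that did not enter through OG2.1 alone they were 14.8% and 0.617%. All 17 were above background in OG2.1, 15 in C1a1, 11 in OG2.2, 8 in E3, 7 in T9, 4 in E5 and 5 in R1. Their mean level followed that order at the top, 8.38 in OG2.1, 6.81 in C1a1 and 6.57 in OG2.2, with 5.23 in E5.

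Shh, the floor plate signal itself, was at 10.61 in OG2.1, 9.10 in C1a1, 7.63 in OG2.2 and 6.36 in E3, and below background in T9 (5.27), E5 (4.29) and R1 (4.53). OG2.1 was highest, 1.51 above C1a1, yet the other lines were so spread (SD 1.90, n = 5) that the difference of 4.08 (SE 1.56) was far from passing limma (adjusted p = 0.813). The winged helix factor genes that act with it also had OG2.1 highest and C1a1 next, but OG2.2 lay below E3 and T9 in them. Foxa2 was at 8.69 in OG2.1, 7.83 in C1a1, 6.26 in T9, 5.96 in E3, 5.44 in OG2.2 and 4.36 in E5. Foxa1 was at 8.88 in OG2.1, 7.61 in C1a1, 6.53 in E3, 6.27 in T9, 5.61 in OG2.2 and 4.63 in E5. Both also mark definitive endoderm, and the other endoderm genes went partly with C1a1: Sox17 (7.48 in OG2.1, 8.60 in C1a1), Gata6 (7.43 and 8.83), Cer1 (6.65 and 8.91) and Lhx1 (7.73 and 10.01) were highest in C1a1. Of 13 definitive endoderm genes, 4 were above all others in OG2.1 (Foxa1, Foxa2, Spink1 and Cxcr4) and 2 below, against 15.9% and 17.7% of all genes tested.

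The transcription factor genes of the ventral progenitor domains had some of the widest gaps. Nkx2-2, a factor of the domain next to the floor plate, was at 8.67 in OG2.1 and 5.71 in C1a1, and at 4.71, 4.68, 4.36 and 4.50 in OG2.2, E3, E5 and T9, below background there. The difference was 3.88 (SE 0.49, limma adjusted p = 0.0876), and without C1a1, the nearest line, it was 4.11 and passed (adjusted p = 0.0154). Leaving out any other line gave adjusted p-values of 0.140 to 0.391. A second, dimmer Nkx2-2 probe read 5.97 in OG2.1 and at most 5.14 elsewhere. Nkx2-9, its close relative, was at 7.53 in OG2.1, 5.54 in C1a1 and at most 4.95 in the other EpiSC lines, with R1 at 6.28 (difference 2.62, SE 0.38, limma adjusted p = 0.143). Nkx6-1, a factor of ventral progenitors and motor neurons, was at 9.72 in OG2.1, 8.38 in OG2.2 and 7.11 in C1a1, and below background in E3, E5, T9 and R1.

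Secreted and surface proteins of the floor plate differed in which line came next. Vtn, which encodes the matrix protein vitronectin, was at 8.81 in OG2.1, 6.69 in C1a1 and at most 4.94 in the other EpiSC lines (difference 3.75, SE 0.78, limma adjusted p = 0.297), and without C1a1, the nearest line, it passed (4.15, adjusted p = 0.0154). Leaving out any other line gave adjusted p-values of 0.324 to 0.684. Slit2, an axon repellent of the midline, was at 9.79 in OG2.1, 8.31 in C1a1, 7.39 in OG2.2, 6.70 in E3, 6.07 in T9 and 5.02 in E5. Corin, a serine protease gene used as a floor plate marker, was at 6.80 in OG2.1 and 4.54 to 4.93 in the others, none above background (difference 2.11, SE 0.27, limma adjusted p = 0.0876, at least 2.37-fold). Spon1, which encodes the floor plate matrix protein F-spondin, was at 7.79 in OG2.1, with E5 next at 6.46. The exceptions in this list were Olig1, highest in OG2.2 (11.82, against 9.73 in OG2.1), Wnt5a (7.58 and 7.26), Slit3, highest in C1a1, and Foxj1, at 6.05 in OG2.1 and 5.79 to 6.37 in the others.

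Among the hedgehog pathway genes tested, only the ligand stood at least 1 above all other lines. Of 7 tested, from a list chosen after values were seen, all 7 had a positive difference, with a median of 0.38. In 4 of them OG2.1 was above all others, in 1, Shh, by at least 1. Over all genes tested these shares were 15.9% and 0.969%. Ptch1, the receptor gene that hedgehog signalling induces, was at 5.54 in OG2.1, below background, and at 6.03 in C1a1. Smo, the signal transducer, was at 9.39 in OG2.1 and 9.02 to 9.19 in the others, and Gli1, Gli2, Gli3 and Hhip were not among the genes tested.

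Of 19 neural progenitor genes tested, from a list chosen after values were seen, 11 were above all 5 others, 7 of them by at least 1, and 0 passed limma. Over all genes tested these shares were 15.9% and 0.969%. Without the 4 that entered through OG2.1 alone, 7 of 15 were above all 5 others and 4 by at least 1, against 14.8% and 0.617% of all genes that did not enter so. The list had a median of 1.46, or 1.38 over those 15. Of 10 neural and anterior genes tested, from a list drawn up earlier, 4 were above all 5 others and 2 by at least 1. Their median was 0.40. Without the 1 that entered through OG2.1 alone, 3 of 9 were above all 5 others and 1 by at least 1, with a median of 0.36. Nr2f1, the orphan nuclear receptor gene COUP-TFI, was at 10.97 in OG2.1, 9.04 in OG2.2 and 7.90 in C1a1, and at 4.87, 4.78 and 5.54 in E3, E5 and T9, below background there (difference 4.55, SE 1.59, limma adjusted p = 0.772). Sox21, a factor of neural progenitors, was at 11.83 in OG2.1, 9.71 in OG2.2, 9.63 in C1a1, 7.81 in T9, 6.82 in E3 and 4.99 in E5, with 9.76 in R1. In both genes OG2.1 was the highest EpiSC line, followed by OG2.2 and C1a1. Gbx2 was highest in OG2.2 (11.21, against 10.65 in OG2.1), Irx3 in C1a1 (10.56, against 10.19). En1, a gene of the midbrain and hindbrain border, was at 6.55 in OG2.1 and at most 5.34 in the other EpiSC lines, none of them above background, and Fabp7, a radial glia gene, was at 6.08 and at most 4.80. No array had the early neural plate genes Sox1 and Pax6 above background, and the progenitor filament gene Nes was at 10.19 in OG2.1 and 9.48 to 10.12 in the others.

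**Figure D3:**
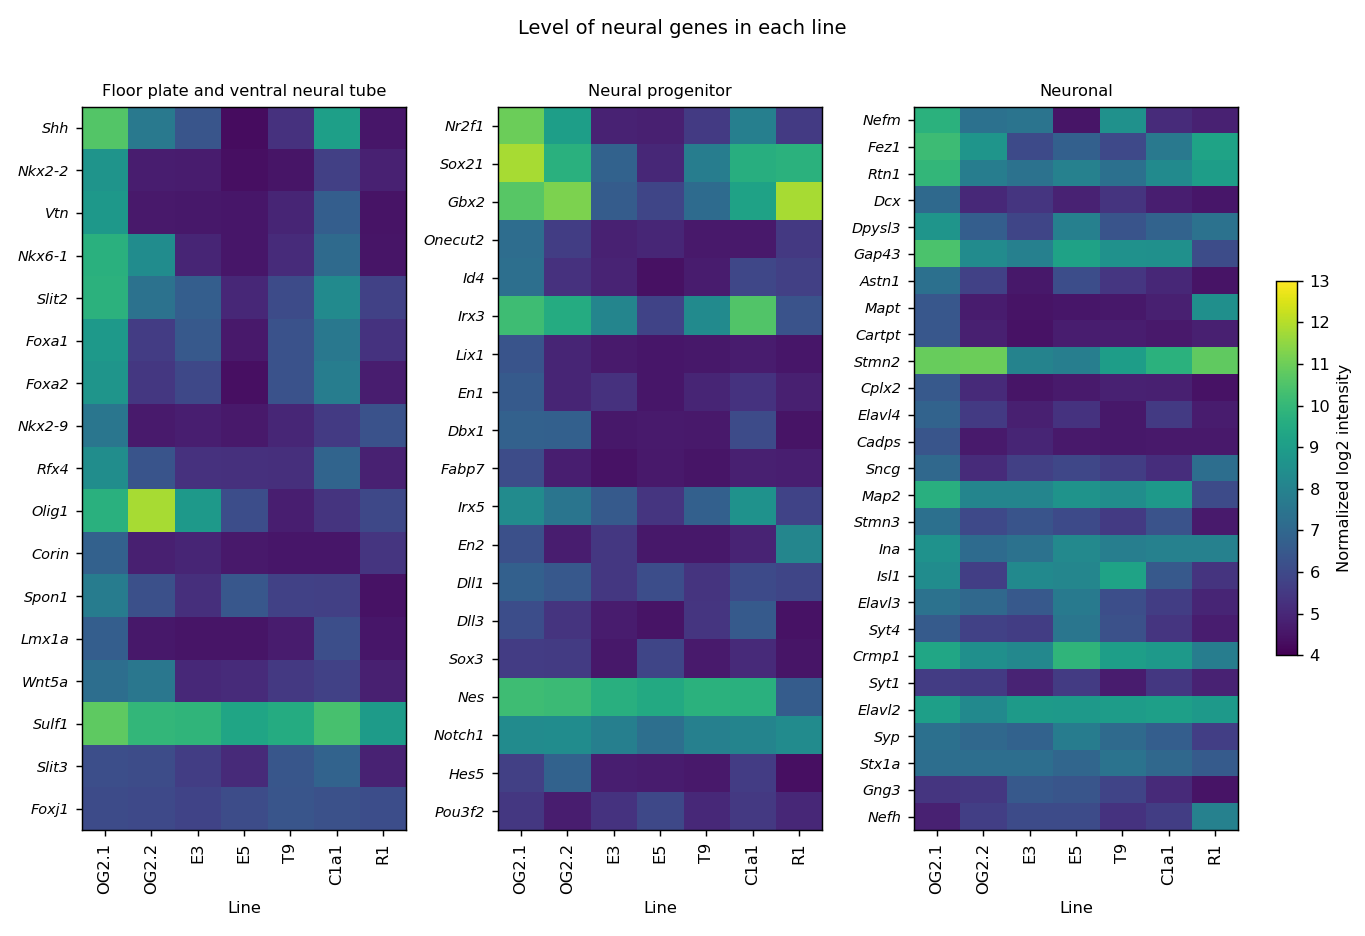
Normalized log2 intensity (colour, from 4 to 13) of the tested genes of 3 neural lists (rows, ordered by the difference of OG2.1 from the mean of the other EpiSC lines) in the 7 lines (columns). In the upper rows OG2.1 is the brightest EpiSC column. C1a1 is next in rows such as Shh, Nkx2-2 and Vtn, and OG2.2 in rows such as Nr2f1 and Sox21. OG2.2 is dark in Nkx2-2 (4.71) and Vtn (4.61), and E5 is dark in rows such as Shh, at 10.61 in OG2.1 and 4.29 in E5.

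Genes of neurons made up another group at the upper end. Of 27 tested, from a list chosen after values were seen, 17 were above all others, 12 by at least 1. In this list 1 was below all others and 0 passed limma, with a median of 1.52. Without the 5 that entered through OG2.1 alone, 12 of 22 were above all others, 7 by at least 1, with a median of 1.08. Of all genes that did not enter through OG2.1 alone, 14.8% were above all others and 0.617% by at least 1. Nefm, a neurofilament gene, was at 9.74 in OG2.1, 8.55 in T9, 7.47 in E3 and 7.36 in OG2.2, and below background in C1a1 (5.11) and E5 (4.52). Fez1, an axon growth gene, was at 10.15 in OG2.1, 8.70 in OG2.2, 7.64 in C1a1, 6.77 in E5, 6.02 in E3 and 5.9997 in T9, with 9.22 in R1. Dcx, the doublecortin gene of migrating young neurons, was at 7.09 in OG2.1 and 4.77 to 5.39 in the others, none above background (difference 2.003, SE 0.32, limma adjusted p = 0.188, at least 2.91-fold).

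The neuronal members included microtubule, synaptic and peptide genes. Rtn1, of the endoplasmic reticulum of neurons, was at 9.97 in OG2.1 and 8.31 in C1a1, the next EpiSC line, with 8.99 in R1. Mapt, the gene of the microtubule protein tau, was at 6.45 in OG2.1 and at most 4.77 in the other EpiSC lines, but at 8.49 in R1 (difference 1.84, SE 0.25, limma adjusted p = 0.0998). Cartpt, a neuropeptide gene, was at 6.45 in OG2.1 and at most 4.79 elsewhere, and the vesicle release genes Cplx2 (6.53) and Cadps (6.38) were likewise above background in OG2.1 alone of the 6. Not every neuronal gene was highest there: Isl1 was at 8.36 in OG2.1 and 9.21 in T9, Crmp1 at 9.32 and 9.89 in E5, and the heavy neurofilament gene Nefh was below background in OG2.1 (4.83) and at 5.31 to 6.05 in the others.

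Among axon guidance genes, in a list chosen after values were seen, 5 of 10 tested were above all others and 3 by at least 1. Over all genes tested these shares were 15.9% and 0.969%. The semaphorin co-receptor gene Nrp1 was at 7.998 in OG2.1, 6.26 in C1a1 and at most 5.72 in the other EpiSC lines (difference 2.42, SE 0.46, limma adjusted p = 0.238). Nrp2 and Sema6a were below all others. Of 8 notochord and cartilage genes, also from a list chosen after values were seen, 3 were above all others and 1, Col2a1, by at least 1. Col2a1, a fibrillar collagen gene of notochord and cartilage, was at 9.75 in OG2.1, 7.75 in C1a1, 7.28 in T9, 7.13 in OG2.2, 6.76 in E3 and 6.15 in E5. The notochord genes Chrd (9.07 in OG2.1, 9.66 in C1a1), Nog (6.85 and 7.47) and Sox9 (7.15 and 7.39) were highest in C1a1, and Noto was below background in OG2.1.

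The remaining genes among the 15 widest gaps had no list in common. Ly6h, a brain-enriched gene of the Ly6 family, was at 10.85 in OG2.1, 8.22 in OG2.2, 8.07 in C1a1, 7.56 in E5, 6.58 in E3 and 6.004 in T9, and all 3 of its probes had OG2.1 at the top. Ptx3, which encodes a secreted pentraxin of innate immunity and matrix assembly, was at 7.51 in OG2.1 and 4.43 to 5.03 in the others, none above background (difference 2.77, SE 0.31, limma adjusted p = 0.0662, at least 3.88-fold). A second Ptx3 probe read 7.72 and at most 4.93, and the mean of both probes passed (2.93, adjusted p = 0.0349). Over all 14 alternatives, the adjusted p-values reached 0.236. Hsd11b2, a glucocorticoid-inactivating enzyme gene, was at 9.38 in OG2.1, 7.08 in C1a1 and 4.67 to 5.53 in the other EpiSC lines. With all lines it did not pass limma (difference 3.81, SE 0.77, adjusted p = 0.254). Without C1a1, the nearest line, it did (4.19, adjusted p = 0.0480), and leaving out any other line gave adjusted p-values of 0.309 to 0.642. Timp4, a metalloproteinase inhibitor gene, was at 7.98 in OG2.1 and 5.87 in C1a1, and the uncharacterized 2510009E07Rik was at 7.84 in OG2.1 and 5.75 in OG2.2.

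Imprinted and BMP genes had positive medians, and 0 of either list passed limma. Of 16 imprinted genes tested, 7 were above all others, 2 below all others, 0 of either by at least 1, with a median of 0.71. Without the 1 that entered through OG2.1 alone, 6 of 15 were above all others, with a median of 0.64. Over all genes tested, 15.9% were above all others and 17.7% below. Cdkn1c, a growth-restraining cell cycle inhibitor gene, was at 12.78 in OG2.1, 12.19 in OG2.2, 10.36 in T9, 9.97 in E3, 9.25 in E5 and 5.13, below background, in C1a1. Nnat, a gene of developing brain, was at 10.64 in OG2.1, 9.73 in OG2.2, 8.58 in T9, 8.38 in E3, 7.90 in E5 and 4.51 in C1a1. In both, OG2.1 and OG2.2 were the highest lines and C1a1 was the lowest. Phlda2, a placental growth restrainer, lay the other way, at 8.84 in OG2.1, 9.65 to 10.33 in OG2.2, E5, T9 and E3 and 11.56 in C1a1. Of 13 BMP signalling genes, 6 were above all others with a median of 0.60. The BMP target Id2 was at 8.88 in OG2.1 and 8.53 in C1a1, and the receptor-regulated transducer Smad5 at 9.76 in OG2.1 and 9.11 to 9.32 in the others.

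Of 19 epithelial and mesenchymal genes tested, 6 were above all others in OG2.1, 5 below all others and 8 within their range. Among all genes tested, 15.9% were above and 17.7% below. The median was 0.16, and 0 passed limma. Zeb1, a repressor of epithelial genes, was at 8.69 in OG2.1, 7.51 in OG2.2 and 7.48 in C1a1, and below background in E3, E5 and T9 (5.21 to 5.33). R1 had more Zeb1 than OG2.1, at 9.04. Twist1, another driver of mesenchymal fate, was at 7.74 in OG2.1, 6.12 in OG2.2, 6.10 in E3 and at most 5.44 in E5, T9 and C1a1 (difference 2.09, SE 0.42, limma adjusted p = 0.238). Vim, Zeb2, Cdh2 and Cd44 were the others above, at gaps of 0.05 to 0.41. On the lower side were Cldn4 (8.35 in OG2.1, 9.19 to 10.77 in the others), E-cadherin's gene Cdh1 (11.11, against 11.32 to 11.74), Esrp1, Spint1 and Cldn6.

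Fibroblast and feeder genes were examined because EpiSC cultures can hold such cells. Of 8 fibroblast and feeder markers on the array, OG2.1 had 3 above background, against 2 to 4 in the other EpiSC lines, and the mean level of the markers was 6.46 in OG2.1 and 5.67 to 6.51 in the others. The collagen genes Col1a2 and Col3a1 and the fibroblast genes Lum and Postn were not above background on any array, and Col1a1 not in OG2.1. Dcn was at 8.99 in OG2.1 and 9.30 in E5. In the wider list of 11 fibroblast and feeder genes tested, 10 had a positive difference, 4 were above all others, 2 of them by at least 1 (Acta2 and Twist1), 1 was below all others and 0 passed limma. The median was 0.86, and the mean level was 8.05 in OG2.1, against 6.55 to 7.44 in the other EpiSC lines. Among all genes tested, 15.9% were above all others and 17.7% below. Acta2, the smooth muscle actin gene, was at 10.64 in OG2.1 and 7.92 to 9.39 in the others (difference 1.995, SE 0.54, limma adjusted p = 0.557). The part of such cells in the results was not tested.

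All 6 pluripotent cell markers were above background in OG2.1. Pou5f1 (Oct4) was at 13.55 in OG2.1 and 12.69 to 14.12 in the others, Sox2 at 8.66 (8.16 to 9.58), Nanog at 9.49 (7.53 to 10.98), Dnmt3b at 14.50 (14.31 to 14.82), Fgf5 at 9.88 (9.60 to 10.80) and Lin28a at 11.27 (10.81 to 11.45). Of 10 core pluripotency genes tested, 0 were above all others and 2 below, Dppa4 and Rif1, with a median of -0.11. The shares over all genes tested were 15.9% above and 17.7% below, so 2 of 10 below was near that share. Of 11 naive pluripotency genes, 0 were above and 3 below (Fbxo15, Dppa5a and Zfp42), each of them below background in OG2.1, and the median was -0.45, with 3 of 11 positive. Of 19 Hox and caudal genes tested, 0 were above or below all others. Above background were 7 in OG2.1 and 18 in OG2.2, against 0 or 1 in E3, E5, T9 and C1a1. Their mean level was 5.47 in OG2.1, 7.29 in OG2.2 and 4.63 to 4.80 in those lines. OG2.2 was the higher of the pair in Hoxc6 (9.77 in OG2.2, 6.18 in OG2.1, at most 5.01 elsewhere).

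The genes below all other lines were fewer and had smaller gaps. Bhlhe40, a stress and clock-related repressor gene, had the widest, at 6.34 in OG2.1 and 8.40, 8.16, 8.27, 8.48 and 8.35 in OG2.2, E3, E5, T9 and C1a1, with 8.42 in R1. The other lines were close together (SD 0.12, n = 5), and the difference of -1.99 (SE 0.25) did not pass limma (adjusted p = 0.0876), nor in any alternative but that without a detection filter (0.0454). Zfp36, the gene of the RNA-destabilizing protein tristetraprolin, was at 6.34 in OG2.1, 7.46 in OG2.2, 7.67 in C1a1 and 8.13 to 8.66 in the others (difference -1.68, SE 0.45).

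Both belong to a list of immediate early genes chosen after values were seen, in which 7 of 17 tested were below all others and 0 above, with a median of -0.46. Over all genes tested, 17.7% were below all others and 15.9% above. The others below were Ier3 (7.64), Myc (4.80, below background), Junb (7.06), Jund (6.70) and Dusp1 (9.69). Junb, an AP-1 factor gene, was at 7.85 to 8.15 in the other EpiSC lines. Fos, Egr1 and Jun did not follow, at 7.97, 11.69 and 6.55 in OG2.1, inside the range of the other lines.

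**Figure D4:**
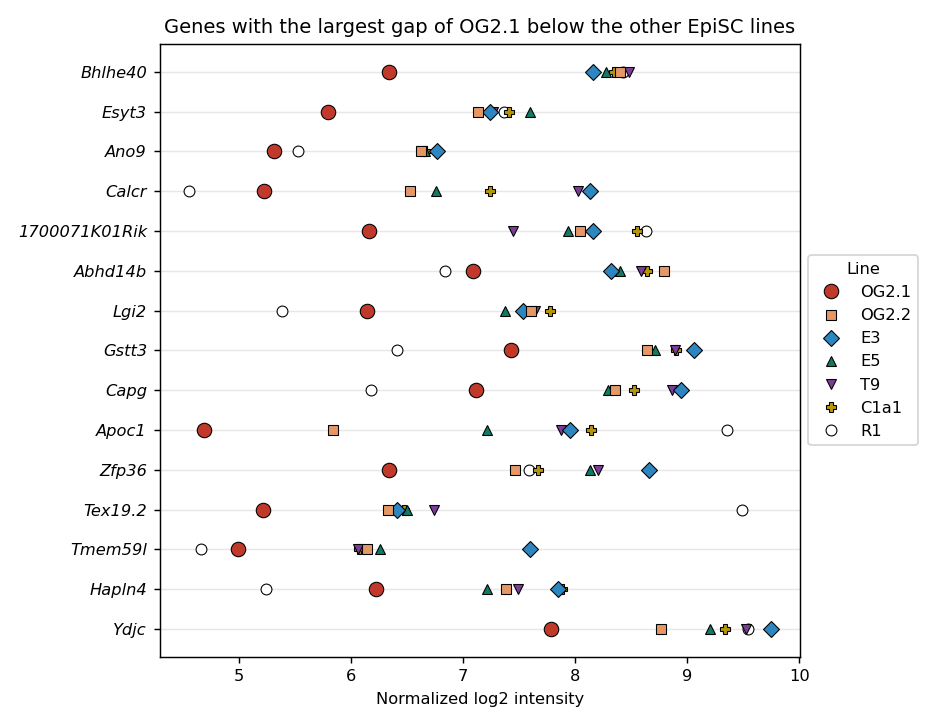
Normalized log2 intensity (x axis) of the 15 genes with the largest gap of OG2.1 below the lowest other EpiSC line among genes above background in all 5, ordered by that gap from the top. Each point is 1 array, with R1 as the open circle. OG2.1 is the leftmost EpiSC point in every row, 1.82 below the next in Bhlhe40 and 0.98 in Ydjc, and R1 is further left in some rows.

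In 102 genes (1.15% of those tested) OG2.1 alone of the 6 was not above background. Of the 13 genes at least 1 below, all 5 other lines had each of them above background, and OG2.1 had 8. R1 lay below OG2.1 in 6, and OG2.2 was the next lowest line in 7. Esyt3, a membrane tether gene, was at 5.79 in OG2.1 and 7.13 to 7.60 in the others. Ano9, of the anoctamin family, was below background in OG2.1 (5.31) and at 6.62 to 6.77 in the others, at least 2.09-fold lower. Apoc1, an apolipoprotein gene, was below background in OG2.1 (4.68) and at 5.84 in OG2.2, 7.22 in E5, 7.87 in T9, 7.95 in E3 and 8.14 in C1a1, at least 3.49-fold lower (difference -2.72, SE 0.80, limma adjusted p = 0.654). Calcr, the calcitonin receptor gene, was below background in OG2.1 (5.22) and at 6.53 to 8.13 in the others, at least 3.33-fold lower. Capg, an actin-capping gene, was at 7.12 against 8.29 to 8.95, and the glutathione transferase gene Gstt3 at 7.43 against 8.65 to 9.06. Differences of the 7 further genes among the 15 widest gaps below, 1700071K01Rik, Abhd14b, Lgi2, Tex19.2, Tmem59l, Hapln4 and Ydjc, ran from -1.86 to -1.28, and limma adjusted p-values were at least 0.231.

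Of 20 oxidative stress response genes tested, 9 were below all others, 1 above and 0 past limma, with a median of -0.35. For all genes tested the shares were 17.7% below and 15.9% above. Nqo1, a target of the oxidative stress factor Nrf2, was below background in OG2.1 (5.43) and at 6.06 to 6.95 in the others. The metallothionein gene Mt1 was at 12.76 in OG2.1 and 13.23 to 14.31 in the others, the glutathione synthesis gene Gclm at 9.89 against 10.34 to 11.01, and Hmox1 at 7.39 against 7.87 to 8.84. Of 19 integrated stress response genes, which act when translation initiation is curbed, 5 were below all others, 0 above and 0 past limma, with a median of -0.43. The mean level of this list was 8.65 in OG2.1, above 8.46 in C1a1 and below 8.87 in OG2.2, with 9.10 in E3, 9.41 in E5 and 9.77 in T9. Chac1 was at 7.82 in OG2.1, but 8.17 in C1a1 and 8.28 in OG2.2 lay close to it and T9 reached 12.28. Cebpb was at 8.78 in OG2.1 and 9.52 to 10.36 in the others. Respiratory chain and ribosomal protein genes had medians of 0.03 and -0.01.

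**Figure D5:**
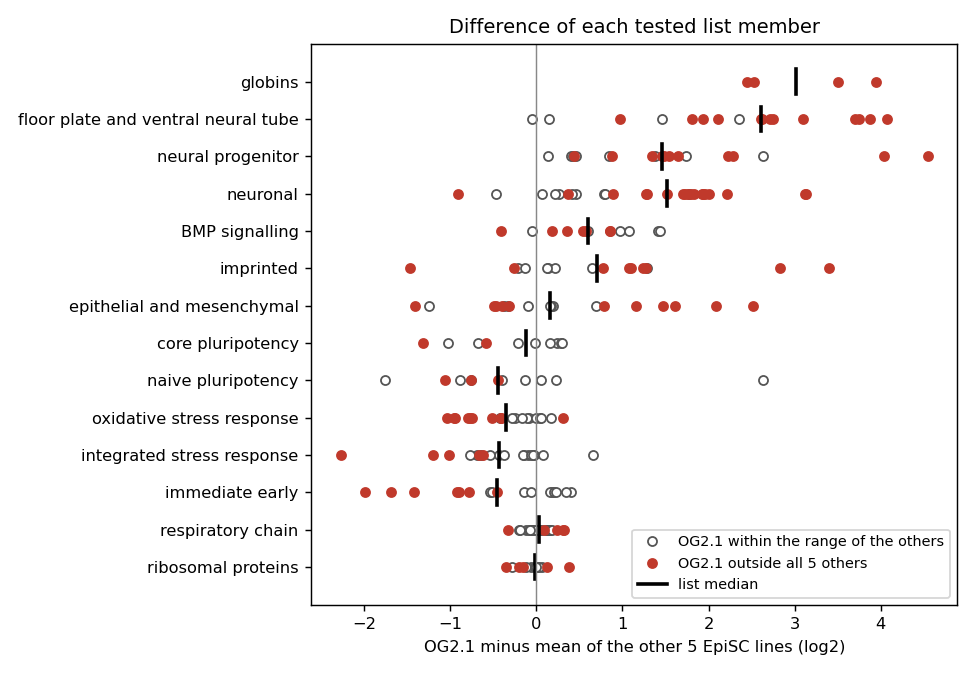
Difference of OG2.1 from the mean of the other 5 EpiSC lines on the log2 scale (x axis) for each tested gene of 14 lists (rows). Filled points are genes in which OG2.1 lay outside all 5 other lines, open points those in which it lay within their range, and bars are list medians, which run from 3.02 for globins and 2.62 for floor plate genes to -0.46 for immediate early genes. Of the 4 globins, 3 entered through OG2.1 alone, and the remaining one, Hba-a1, was at 2.53.

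OG2.2, which shares its name with OG2.1, was the most similar line, with 663 genes at least 1 apart, 388 higher and 275 lower in OG2.1. C1a1 had 848 such genes, T9 932, E5 1100 and E3 1137, and R1 2368. Pearson's r with OG2.1, taken over genes that are no replicates of each other, was 0.965 for OG2.2, 0.952 for C1a1 and 0.937 to 0.948 for the other EpiSC lines. Without OG2.2, 143 genes were at least 1 above the remaining lines and 47 at least 1 below, against 86 and 13 with it, and limma then called 2 higher (Hbb-y and Hbb-bh1) and 2 lower genes. The 2 lower were Casp9, the initiator caspase gene of the mitochondrial pathway, and Thumpd1, a tRNA modification gene, named here after their values were seen. Casp9 was at 4.76 in OG2.1 and 5.01 in OG2.2, below background in both, and at 9.04 to 9.32 in E3, E5, T9 and C1a1. Thumpd1 was at 4.49 and 4.60, likewise below background, and at 10.70 to 11.57 in the other 4 lines, so both OG2 lines were low. The embryonic globins, Scara3, Ptx3, Gata2, Nkx2-2, Vtn and Corin were instead above background in OG2.1 and not in OG2.2.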

How the data were processed

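RNA of 7 mouse lines was measured on Illumina bead arrays, 1 array per line. The deposited intensity values are linear signals summarised per probe, neither normalized nor background subtracted, and each has a deposited detection p-value, per the file headers. The deposited log2 values were used as an alternative. The submitters' processing notes name BeadStudio 3.2, RMA and lumi without order or settings. Median signals ran from 123.5 to 131.3, and 10642 to 11574 of 25697 probes were above background on the EpiSC arrays, 10907 on OG2.1. The number of arrays limits the precision.

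Intensities of the 7 arrays were normalized with neqc in limma 3.58.1 (R 4.3.3), with an offset of 16, negative controls inferred from detection p-values and quantile normalization. Log2 differences with an offset understate the fold of dim genes. Of the probes, 23978 had 1 symbol in the array's table and 1719 none. The probe with the highest mean over the EpiSC arrays represented each gene, 2339 of which had several kept probes. Limma (lmFit and eBayes, 2-sided, 4 residual degrees of freedom, threshold 0.05) compared OG2.1 with the mean of the other 5 lines. The OG2.1 array was assumed to vary like the other lines. Fold bounds for genes below background used, per array, the higher of the lowest detected value and the probe's own. The method was tested on simulated data.

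The members, the lists and the tests were chosen with earlier results of these data known. The 7 lists for floor plate, hedgehog, neural progenitor, neuronal, notochord, immediate early and axon guidance genes were chosen after values were seen, and so support nothing. Genes named are Hbb-y, Hbb-bh1 and Scara3, the 15 widest gaps either way, all genes passing limma and, the 4 members farthest from 0 in a described list. Further list members, second probes and markers named were chosen after their values were seen. Lists were described by counts and medians, with no test. Promoter sequences came from RefSeq (GRCm38.p6), and motifs were searched on both strands. Alternatives changed the values (deposited log2, uncorrected background, median scaling, EpiSC arrays alone), the filter (none, or detection p under 0.05), the probes (averaged, or each tested), the variance model (trended, robust), the size threshold (1 log2) or the lines (each removed in turn).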

Additional observations from a re-analysis of the deposited data

Results flagged for a closer look

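The genes Nkx2-2, Vtn, Ano9 and Tmem59l had 1 line far from the rest among the 5 other EpiSC lines, by Dixon's criterion, which chance meets in about 1 of 20 groups. C1a1 stood apart in Nkx2-2 at 5.71 and in Vtn at 6.69, in both cases toward OG2.1. E3 stood apart in Ano9 at 6.77 and in Tmem59l at 7.599, in both cases away from OG2.1.

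Among 731 kept probes that the array's table gives no gene, and which entered no comparison, 4 were at least 1 log2 unit above all 5 other lines in OG2.1. Their levels in OG2.1 ran from 8.12 to 9.41, with the highest of the other EpiSC lines at 7.03 to 7.88, and 0 of them passed limma.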

How the results depend on the processing

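The 3 limma calls higher in OG2.1 became 1 with the deposited log2 values and 1 without background correction, 10 without a detection filter, 7 with the mean of a gene's probes and 9 with every probe, and 1 to 5 when each line was left out. The 0 calls lower became 2 without a detection filter and 0 to 2 when a line was left out. Hbb-y passed in all 14 alternatives run for it, with an adjusted p of at most 0.042. The 86 genes at least 1 above became 136 with the deposited log2 values, 30 without background correction and 92 to 143 without 1 line, the highest without OG2.2 (143) and C1a1 (139). The 13 genes at least 1 below became 62, 1 and 14 to 47 in those settings. All 86 and 13 kept their side of all 5 other lines in the deposited values and without background correction. Of 420 values of named genes under these alternatives, 398 kept their direction and their side of the threshold, 12 newly passed, 10 no longer passed and 0 reversed. The cause was not tested. Dim genes are limited by signal over background. No paired analysis was possible because each line has 1 array and the replicate numbers were given in accession order.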
